A study of Mus musculus with 42 samples.

Results

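The cytosolic ribosomal protein genes were followed through 9 groups of preimplantation mouse embryos. Members were the rows whose symbol is Rpl or Rps followed by a number, plus Rplp0, Rplp1, Rplp2 and Rpsa, without names that contain -ps and without the Rps6k kinases. This rule gave 53 of the 15737 genes in the table, 30 of the large subunit and 23 of the small subunit, on 11 chromosomes. The rows cover chromosomes 1 to 11, and genes elsewhere were not analysed here. By the gene annotation, 50 members are protein coding, Rpl32l and Rpl6l are processed pseudogenes, and Rps4l is a transcribed one. Another 117 names that contain -ps fall outside the rule, and reads of a ribosomal protein gene cannot always be told from those of its near-identical copies, so single levels carry that uncertainty.

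The study asked how the supply of NAD+ bears on gene activation in embryos of wild-type ICR mice. RNA was sequenced from untreated early 2-cell embryos (34 h after human chorionic gonadotropin), late 2-cell embryos (48 h) and 4-cell embryos (58 h). Late 2-cell and 4-cell embryos were controls, were treated with 0.01 µM FK866, an inhibitor of the NAD+ salvage enzyme NAMPT, or received FK866 with 10 µM NMN, the product of that enzyme. Other late 2-cell embryos were treated with 10 nM TSA, a histone deacetylase inhibitor, or carried a Sirt1 knockdown made by injecting zygotes with siRNA, Trim21 mRNA and an antibody to SIRT1. The labels call the controls untreated, whereas the study's methods name DMSO, the solvent of FK866 and TSA, as the negative control. The injected controls given scrambled siRNA were not analysed here, so the knockdown is set against the late 2-cell control column. Each library held 3 pooled embryos and each group had 2 libraries by the study's account.

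A cytosolic ribosome is built from ribosomal RNA and many ribosomal proteins, in a small subunit that reads the mRNA and a large subunit that joins amino acids. The genes are usually among the most highly expressed of a growing cell, and their mRNAs start with a run of pyrimidines (the 5′ terminal oligopyrimidine, or TOP, motif) through which mTOR signalling controls their translation. A mouse zygote starts with ribosomes and mRNA from the oocyte, and most of its own transcription begins in the 2-cell embryo.

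The starts of 6 members whose values the results turn on are printed from RefSeq on GRCm38.p6, 30 bases before the gene's start and 20 from it, 5′ to 3′ on the gene's strand. Capitals mark a pyrimidine run of at least 6 bases that lies at the start or within 3 bases of it, and a sequence without capitals has no such run there. Annotated starts can differ: for Rpl41 RefSeq gives 128549168, while the gene annotation reaches to 128549305. A missing run therefore does not show that the mRNA lacks one. Rps27 had the largest late 2-cell rise, and Rps27l is its paralogue with another course over the stages. Rplp2 is a stalk protein, Rps6 is the substrate of the S6 kinases, and Rps15 and Rpl41 were among the lowest members under FK866.
Rps27, chr3:90213629-90213678, minus strand: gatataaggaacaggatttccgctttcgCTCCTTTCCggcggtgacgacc
Rps27l, chr9:66946056-66946105, plus strand: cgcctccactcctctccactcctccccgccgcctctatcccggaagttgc
Rplp2, chr7:141447621-141447670, plus strand: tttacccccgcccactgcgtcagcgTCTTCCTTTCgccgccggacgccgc
Rps6, chr4:86857348-86857397, minus strand: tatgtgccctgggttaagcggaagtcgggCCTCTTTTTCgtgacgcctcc
Rps15, chr10:80292401-80292450, plus strand: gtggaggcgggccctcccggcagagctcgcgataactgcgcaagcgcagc
Rpl41, chr10:128549149-128549198, minus strand: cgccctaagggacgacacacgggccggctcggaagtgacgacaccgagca

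A start window of 250 bases before to 50 after was found for 39 of the 53 members and for 27025 genes in all. The pyrimidine run was present in 19 of the 39 members (48.7%) and in 16.7% of all windows. The letters CGGAAG, read on both strands, were in 26 members (66.7%) and in 17.2% of all windows, and GGGCGG, read likewise, in 23 members (59%) and in 35.9%. AAGATGGC was in 3 members (7.69%) against 2.88%, and TATAAA in 3 members (7.69%) against 14.2%. These are matches of letters in a window, not known sites.

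Each group was deposited as 1 column of FPKM (fragments per kilobase of exon, scaled to the number of mapped reads). From the steps between low values, 7 columns were found to be sums of 2 libraries and 2 columns, whose headers are 4-cell FK866 and 4-cell FK866+NMN, to hold 1 library each. Library totals recovered from these steps ran from 3169677 to 10003481 reads. The libraries of a summed column, called A and B with A the deeper, were separated for 35 members in every column. FPKM are given per library, and being relative they cannot tell apart less RNA per cell from fewer cells of a type.

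The headers and the values listed in the study's own tables disagree on which group 5 columns hold. By the listed values, the column headed late 2-cell TSA is the 4-cell control, the one headed late 2-cell Sirt1 is 4-cell FK866, and the one headed 4-cell control is 4-cell FK866+NMN. The column headed 4-cell FK866 is then late 2-cell TSA, and the last, headed 4-cell FK866+NMN, is late 2-cell Sirt1. These 2 were assigned by the direction of the genes that the study lists for each treatment. There 100% of the genes listed for TSA and 94.15% of those for Sirt1 had the listed direction. In the columns headed TSA and Sirt1, 45.4% and 53.8% had it. The first 4 columns, early 2-cell and late 2-cell control, FK866 and FK866+NMN, are the same by both. Sirt1 itself was at 52.7 FPKM in the column headed late 2-cell Sirt1 (32.4 and 73.1 in the 2 libraries) against 76.4 in the late 2-cell control (86.6 and 66.2), and the libraries overlapped. In the column that the tables give to the knockdown Sirt1 was at 11.3 FPKM, and in the column headed 4-cell FK866 it was at 7.61. The 6 genes of a 2-cell stage marker list found in the table summed to 404 FPKM in the late 2-cell control and to between 16.6 and 44.4 in the columns headed late 2-cell TSA, late 2-cell Sirt1 and 4-cell control. Under the header 4-cell FK866 they summed to 251, and under 4-cell FK866+NMN to 337. Comparisons that use one of these 5 columns are therefore given by both readings. Cumulus cell markers, 4 of 8 in the table, summed to at most 2.70 FPKM in any column.

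The ribosomal protein genes held 0.651% of all FPKM in the early 2-cell column and 4.08% in the late 2-cell control, with a median member at 15.3 and 126 FPKM. In late 2-cell embryos with FK866 they held 2.94% and with FK866+NMN 2.82%. The columns headed late 2-cell TSA, late 2-cell Sirt1 and 4-cell control formed a high set, with shares of 9.18%, 8.82% and 8.39% and median members at 454, 423 and 368 FPKM. The share was 2.23% under the header 4-cell FK866 and 2.78% under 4-cell FK866+NMN. Among reads, the 35 members separated in every column made up 0.124% and 0.132% of the early 2-cell libraries and 0.696% of each late 2-cell control library. They made up 0.470% and 0.521% of the FK866 libraries and 0.363% and 0.434% of the FK866+NMN libraries, so the FK866 pair lay below the control pair and the FK866+NMN pair below both.

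**Figure D1:**
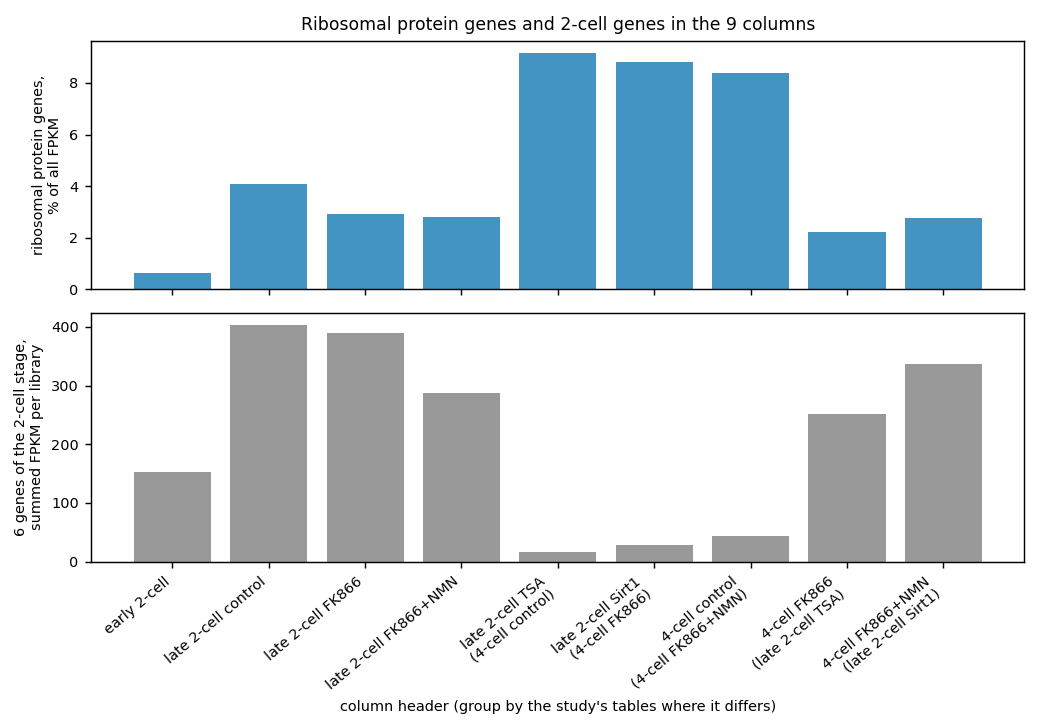
Share of all FPKM held by the 53 ribosomal protein genes (upper bars, percent) and summed FPKM per library of 6 genes of the 2-cell stage (lower bars), in the 9 columns named by header, with the group by the study's tables in brackets where it differs. The 3 columns with shares over 8% are the 3 with the lowest 2-cell gene sums.

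Rplp1, one of the acidic stalk proteins that recruit elongation factors, was the highest member in every column except early 2-cell, where Rpl32 was (177 FPKM). Rplp1 stood at 58.3 FPKM in early 2-cell, 2030.1 in the late 2-cell control and 6088 in the column headed late 2-cell TSA. By mean over columns it was followed by Rps3a1, Rps27l, Rplp0 and Rps21. The 5 lowest by mean were the pseudogene Rpl32l, then Rpl21, Rpl22l1, Rpl29 and Rpl13a. In all, 48 members were at 1 FPKM per library or more in every column. Rpl22l1, the paralogue of Rpl22, was listed at 0 under the headers late 2-cell FK866+NMN, 4-cell FK866 and 4-cell FK866+NMN, and Rpl32l under the first of these. No member reached the 100 highest genes of the early 2-cell column, 11 did in the late 2-cell control, and 16 to 20 did in the high set. Libraries of 1 column differed at the median member by 0.28 to 0.65 log2 units, the largest spread being that of FK866+NMN, where 16 of 49 members lay over 2-fold apart.

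**Figure D2:**
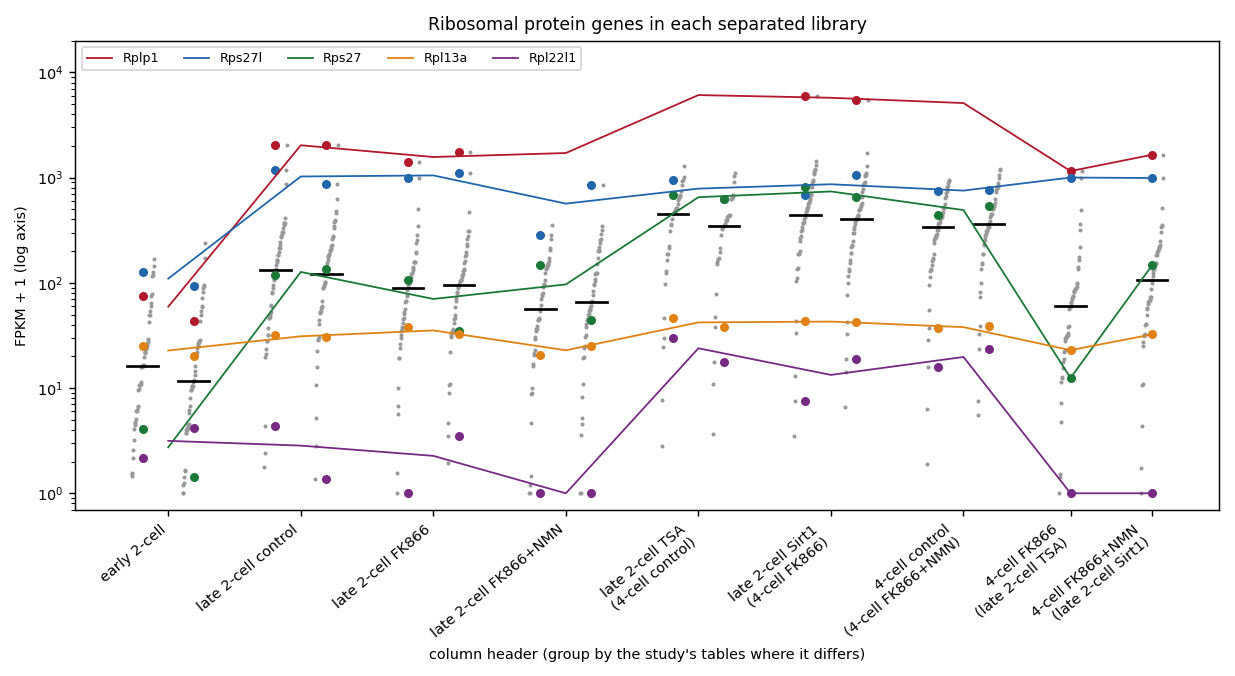
FPKM + 1 (log axis) of the ribosomal protein genes in each separated library, grouped by column. Small points are members, the bars across them their median, and large points and lines 5 named genes. The lines join column values in all columns, including those where the libraries could not be separated. Rplp1 and Rps27 climb from early to late 2-cell, and Rpl13a stays between 19.2 and 45.1 FPKM in the separated libraries.

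Nearly every member had a higher FPKM in late 2-cell control embryos than in early 2-cell embryos. Of the 53 members, 46 were more than 2-fold higher and 0 lower, where 32.2% of all genes tested were higher and 31.7% lower. The median member differed by 3.16 log2 units and the median gene by -0.00. In the separated libraries 51 members had both late libraries above both early ones (30.9% of all genes), and only Rpl22l1 and Rpl32 overlapped. By limma on log2(FPKM + 1), with Benjamini-Hochberg adjustment over all genes tested, 40 members rose and 0 fell, where 11.9% of all genes rose and 7.59% fell. That count rests on having both libraries of each stage: it was 15 and 13 without early 2-cell library A or B, and 5 and 0 without late 2-cell control library A or B.

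Rps27, a zinc-binding protein of the small subunit, stood at 3.06 and 0.413 FPKM in the early libraries and at 119 and 133 in the late ones. The difference of 5.54 log2 units was the largest of all members and passed limma (SE 0.61, adjusted p = 0.012). Rpl12 and Rpl9 also differed by more than 4 log2 units (5.08 and 4.84), and both passed. Early values of Rps27 and Rpl9 were near 1 FPKM, where the pseudocount of 1 shrinks the difference. The early libraries held 18 and 2 reads of Rps27 and 27 and 3 of Rpl9, so the size of these rises is uncertain.

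All 4 members of the stalk, the flexible arm of the large subunit, rose. Rplp1 stood at 74.3 and 42.3 FPKM early and at 2028 and 2032 late, 5.10 log2 units higher. Rplp2, whose start is printed above with a pyrimidine run, stood at 14.7 and 10.5 early and 183 and 215 late. Rplp0, the stalk's base, started from a higher level, 143 and 89.0 FPKM, and reached 408 and 478, a rise of 1.92. The members along the mRNA path of the small subunit also passed the test, 5 of 5, among them Rps3 with a difference of 3.50 and Rpsa with 4.34. Of the 4 members at the exit tunnel for the new peptide, Rpl22, Rpl31 and Rpl35 were over 2-fold higher, and Rpl4 differed by 0.93 from a level of 167 and 172 FPKM early. Limma called 3 of these 4, Rpl4, Rpl31 and Rpl35. Rpl5 and Rpl11, which carry the 5S ribosomal RNA into the ribosome, differed by 1.48 and 1.14 and neither passed (adjusted p = 0.10 and 0.056).

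A few members hardly differed between the stages. Rpl13a stood at 24.3 and 19.2 FPKM early and 30.7 and 29.4 late, and Rpl7a at 22.6 and 23.2 early and 27.1 and 27.9 late. Rpl32 was at 118 and 236 early and at 293 and 201 late, so its libraries overlapped. The differences of Rps15a (0.41), Rpl13a (0.45), Rpl32 (0.48), Rpl7a (0.25) and Rpl22l1 (-0.15) were the smallest. Among the members with a start window, the 19 with the pyrimidine run had a median difference of 2.70 and the 20 without it 3.58. The 26 with CGGAAG had a median of 3.65 and the 13 without it 1.92, with ranges that overlapped in both splits.

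**Figure D3:**
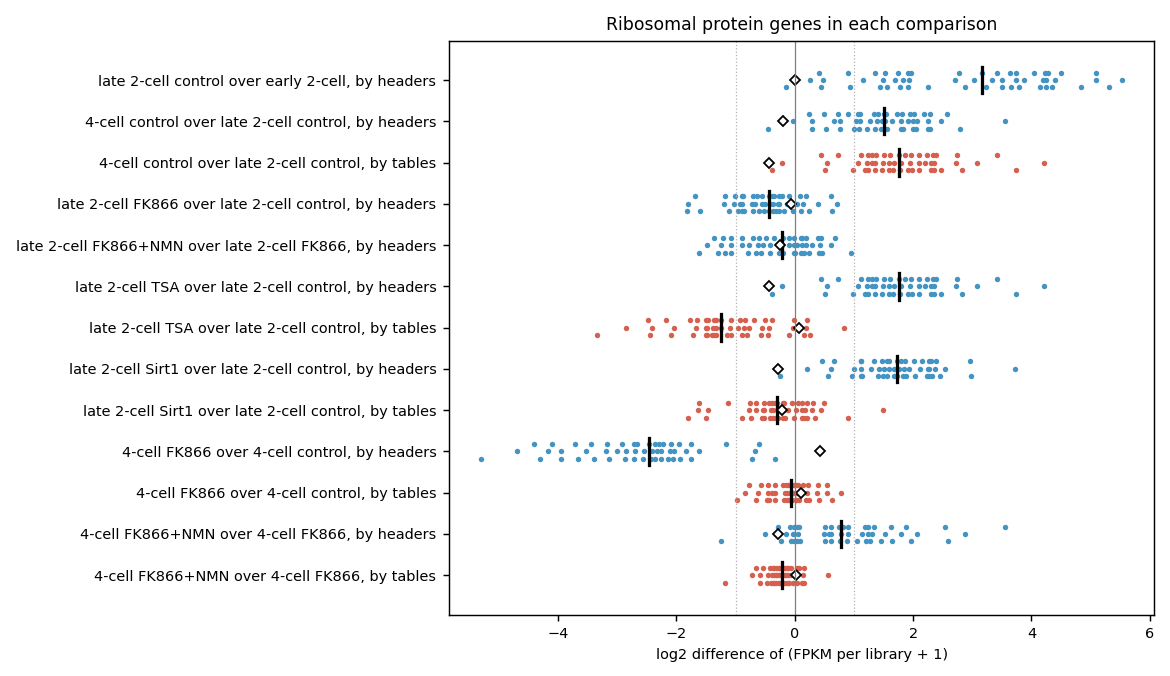
Log2 difference of (FPKM per library + 1) of each ribosomal protein gene in each comparison, with column headers (blue) or the study's tables (red) naming the groups. Bars are the median member, diamonds the median of all genes tested, and dotted lines a 2-fold difference. Members lie far to the right from early to late 2-cell and around 0 for 4-cell FK866 by the tables.

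From the late 2-cell to the 4-cell control the members were higher again by either reading. By headers 41 of 53 were more than 2-fold higher and 0 lower, against 24.2% and 33.8% of all genes tested, with a median of 1.51 where the median gene was at -0.21. By the tables, 46 of 53 were higher and 0 lower, against 23.2% and 41.3%, with medians of 1.75 and -0.44. Every 4-cell library was above every late 2-cell library for 48 of 51 members by headers (27.8% of all genes) and below it for 1 (28.5%), and above it for 34 of 36 by the tables (24.2%). Limma called 33 of 51 members higher by headers (4.41% of all genes) and 25 of 36 by the tables (4.08%), and none lower, where 6.66% and 7.64% of all genes were. With no trend of the spread with the level in limma, the counts were 0 and 2. Leaving out 1 library, the count by headers was 1 without late 2-cell control library A and 0 without any of the other 3. By the tables it was 7 and 6 without late 2-cell control library A or B and 0 without either library of the column headed late 2-cell TSA.

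Rpl7, a protein of the large subunit, led the rise. It stood at 27.0 and 21.7 FPKM in the late 2-cell control and at 255 and 338 in the column headed 4-cell control, a difference of 3.55, and at 488 and 445 in the column that the tables give, a difference of 4.20. By headers Rpl22l1 (2.80, adjusted p = 0.054), Rpl14 (2.57) and Rps3 at the mRNA entry (2.47) followed. By the tables Rpl7a came next, which had hardly differed between early and late 2-cell and was 3.74 log2 units higher here, at 475 and 287 FPKM, and then Rpl14 (3.42).

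Rps27 and its paralogue Rps27l parted at this step. Rps27 went from 119 and 133 FPKM to 443 and 538 by headers and rose by 1.95. Rps27l stood at 1177 and 872 in the late 2-cell control and at 745 and 759 in the 4-cell control by headers (-0.45), or at 949.6 and 621 by the tables (-0.38), and passed no test in either reading. By headers it was the 1 member with both 4-cell libraries below both late 2-cell ones. Rpl22l1 was near the detection limit until this step, at 3.31 and 0.362 FPKM in the late 2-cell control, and was at 15.0 and 22.5 by headers and 28.9 and 16.9 by the tables. Rpl28, Rpl41, Rpl13a and Rps15 differed least of the rest by headers (-0.02 to 0.29). Both 5S particle members rose by either reading. Of the members whose libraries could be separated, and so tested, 2 of 4 of the tunnel rose by headers and 2 of 3 by the tables, 4 of 5 and 2 of 2 of the mRNA path, and 1 of 3 and 0 of 1 of the stalk. By the tables all 5 mRNA path members, all 4 of the tunnel and 3 of 4 of the stalk were more than 2-fold higher between the columns.

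FK866 at the late 2-cell stage was set against the late 2-cell control on columns that headers and tables name alike. The member values leaned lower without any passing the test. The median member differed by -0.43 and the median gene by -0.06. More than 2-fold lower were 9 of 53 members and more than 2-fold higher 0, against 20% and 18.1% of all genes, so the share of members past 2-fold on the lower side was near the background. Both FK866 libraries lay below both control libraries for 31 of 53 members and above for 4, where 20.2% and 16.6% of all genes did so. Limma called 0 members and 0 genes in all. At an unadjusted p under 0.05 it had 16 of 53 members lower and 0 higher, where 391 and 290 of 8551 genes were. Without FK866 library B the median member was at -0.63.

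Rps15, a small subunit protein near the decoding site, was the member furthest below its control. It stood at 303 and 344 FPKM in the control libraries and at 88.4 and 92.7 with FK866, a difference of -1.83 (limma SE 0.27, adjusted p = 0.28). Rpl5 stood at 45.8 and 58.4 in control and 18.4 and 9.88 with FK866 (-1.81, adjusted p = 0.43). Rpl41, the smallest ribosomal protein, stood at 367 and 459 in control and 123 and 132 with FK866 (-1.69, adjusted p = 0.32). In all 3 the libraries of the groups did not overlap. The 2 FK866 libraries of Rpl5 lay further apart than those of Rps15 and Rpl41.

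Rpl28 (-1.61) and Rps26 (-1.20), which contacts the mRNA upstream of the start codon, also lay below control in both libraries. Of the 5 mRNA path members 3 were over 2-fold lower, Rps15 and Rps26 among them. Of the stalk 1 of 4 was (Rpl12, 229 and 229 FPKM in control and 108 and 118 with FK866), of the 5S particle Rpl5 alone, and of the tunnel 0 of 4. At the other end stood Rpl7 (0.72), Rps27a (0.64), which is made as a fusion to ubiquitin, Rpl14 (0.39), Rpl9 (0.24) and Rpl13a (0.19). Rpl7 was at 27.0 and 21.7 in control and at 52.1 and 29.3 with FK866, and Rps27a at 59.9 and 102 in control and 138 and 114 with FK866. Rps27l was nearly the same in both groups, at 1177 and 872 in control and 986 and 1110.2 with FK866.

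**Figure D4:**
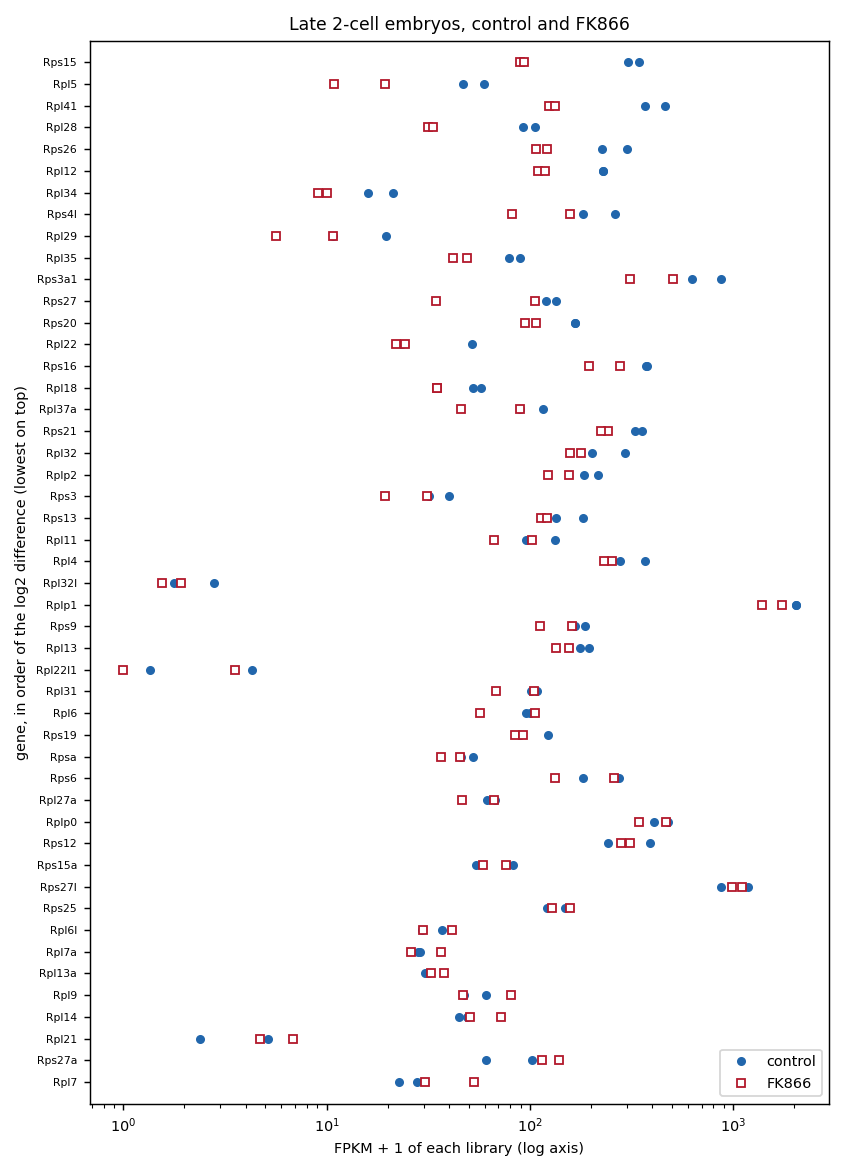
FPKM + 1 (log axis) of 48 ribosomal protein genes in the 2 control libraries (filled circles) and the 2 FK866 libraries (open squares) of late 2-cell embryos, ordered by the difference between the columns with the lowest on top. Squares lie left of circles in the upper rows, from Rps15 at -1.83, and to the right in the lowest rows, down to Rpl7 at 0.72.

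NMN given with FK866 was set against FK866 alone in late 2-cell embryos, which asks whether restoring the NAMPT product brings the members back. The median member differed by -0.21, and the median gene by -0.24. Centred on all genes the median member was at 0.033, and without FK866+NMN library B, uncentred, at -0.57. Of 52 members 10 were more than 2-fold lower and 0 higher, against 33.3% and 18.9% of all genes. Both libraries were lower for 18 of 50 members and higher for 6, against 24.3% and 9.63%. Limma called 0 members and 0 genes, and at an unadjusted p under 0.05 it had 2 of 50 members lower and 0 higher, where 375 and 87 of 7909 genes were. Against the late 2-cell control, whose libraries also enter the FK866 comparison, FK866+NMN had 22 members more than 2-fold lower and 1 higher (36.2% and 21% of all genes) and a median of -0.86.

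Rps27a was the lowest member against FK866 alone, at 138 and 114 FPKM with FK866 and at 43.4 and 37.2 with FK866+NMN (-1.62, adjusted p = 0.69). Rpl31 (-1.48), Rps20 (-1.30), Rpl6l (-1.25) and Rpl6 (-1.08) followed. Rpl41 was the highest, at 123 and 132 with FK866 and 148 and 348 with FK866+NMN (0.96), and stayed under the 367 and 459 of the control. Rps15 went from 88.4 and 92.7 to 37.7 and 119.9 and its libraries overlapped. Rpl7a (0.68), Rps27 (0.46) and Rpl32 (0.44) were also above FK866 alone, and none of them passed.

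In 4-cell embryos the FK866 comparison depended on how the columns are read. By headers, 48 of 53 members were more than 2-fold lower with FK866 and 0 higher, against 32.9% and 41.8% of all genes, with a median of -2.47 where the median gene was at 0.42. The single FK866 library lay below both control libraries for 50 of 51 members (36.4% of all genes), and limma called 24 members lower and none higher, where 6.91% of all genes were lower and 15.4% higher. A single library has no spread of its own, so the fit assumes that it varies like the control libraries. By the tables the median member differed by -0.06 and the median gene by 0.10, and 0 of 53 members passed 2-fold in either direction, against 21.2% higher and 13.4% lower. Limma then called 0 of 36 members, with 1 lower and 0 higher at an unadjusted p under 0.05, where 160 and 296 of 6969 genes were.

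By headers Rps27 was furthest below control, at 443 and 538 FPKM in the control libraries and 11.5 with FK866 (-5.30, adjusted p = 0.029). Rpl7 stood at 255 and 338 in control and 10.5 with FK866 (-4.69), and Rpl37a at 371 and 309 in control and 17.9 with FK866 (-4.17). Rpl22l1 was listed at 0 with FK866. Rps27l alone was above control, at 745 and 759 and at 1001 FPKM (0.41). The smallest differences below 0 were those of Rps12 (-0.34), Rplp0 (-0.61), Rpl41 (-0.68) and Rpl13a (-0.73). The 6 genes of the 2-cell stage summed to 251 FPKM in this FK866 column and 44.4 in its control, and their part in the result was not tested.

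By the tables the 4-cell groups lay close together. Rps27 stood at 680.1 and 622 FPKM in control and 822 and 654 with FK866, and Rplp2 at 646 and 386 and at 502 and 509. Both pairs of libraries overlapped, as did those of 24 of 36 members, while 7 were lower and 5 higher in both libraries, against 15.3% and 20.8% of all genes. Rpl22l1 (-0.84), Rps4l (0.78) and Rpl5 (-0.97) were among the members furthest apart. Rps4l stood at 187 and 195 in control and 438 and 219.8 with FK866, and Rpl5 at 355 and 351 in control and 136 and 222 with FK866.

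FK866+NMN against FK866 in 4-cell embryos also turned with the reading. By headers, 1 library against 1, 21 of 51 members were more than 2-fold higher and 1 lower (25% and 34.7% of all genes), with a median of 0.78 and no test. Rps27 stood at 146 FPKM with FK866+NMN and 11.5 with FK866, and Rpl41 at 133 and 316. By the tables the median was -0.22 against 0.02 for all genes, with 0 members higher and 1 lower past 2-fold (14.8% and 11.5% of all genes). Limma called 0 of 50, with 1 lower and 0 higher at an unadjusted p under 0.05, where 130 and 216 of 7404 genes were. Both libraries with FK866+NMN were below both with FK866 for 19 of 50 members and above for 0, against 14.4% and 18.8% of all genes.

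TSA at the late 2-cell stage gave opposite directions by headers and tables. By headers the TSA column is the one that the tables give to the 4-cell control, so its values are those described above: 46 of 53 members more than 2-fold higher and 0 lower (23.2% and 41.3% of all genes), with 25 of 36 called higher by limma (4.08%) and none lower (7.64%). By the tables, 31 of 53 were lower and 0 higher (29.7% and 30.1% of all genes), with a median of -1.25 against 0.07. The single TSA library was then below both control libraries for 46 of 53 members (31% of all genes) and not below both for the others. Limma called 2 members lower, Rps27 among them, and none higher, where 0.36% of all genes were lower and 10.5% higher, and with no trend it called 0.

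By the tables Rps27 stood at 119 and 133 FPKM in control and 11.5 with TSA (-3.35, adjusted p = 0.047). Rpl28 (-2.49), Rpl37a (-2.44) and Rps13 (-2.42) were also low and did not pass. Rpl14 was the highest, at 48.2 and 43.8 in control and 82.1 with TSA (0.82, adjusted p = 0.20), and Rpsa, Rplp0, Rps12 and Rpl27a were also above 0. Of the mRNA path 4 of 5 were over 2-fold lower, and of the stalk and of the tunnel 2 of 4 each.

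The Sirt1 knockdown likewise turned. By headers 45 of 53 members were more than 2-fold higher and 0 lower (24.3% and 36.6% of all genes), with a median of 1.72 against -0.28, and limma called 32 of 52 higher (3.05%) and none lower (5.7%). That count was 1 without late 2-cell control library A, 0 without any of the other 3 libraries, and 0 with no trend in limma. Rpl7, at 27.0 and 21.7 FPKM in control and 371 and 298 in this column (3.73), led, followed by Rpl7a (2.98), Rpl14 (2.97), Rps27 (2.54) and Rpl34 (2.45), and Rps27l was lowest (-0.25). This column is the one in which Sirt1 overlapped its control. By the tables the median member was at -0.29 and the median gene at -0.21, with 1 member more than 2-fold higher and 6 lower (16.4% and 28.2%). Limma called 0 of 53 members, with 1 higher and 4 lower at an unadjusted p under 0.05, where 592 and 321 of 8175 genes were.

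By the tables the single knockdown library had Rps15 at 104 FPKM against 303 and 344 in control (-1.62, adjusted p = 0.24) and Rpl41 at 133 against 367 and 459 (-1.63, adjusted p = 0.35). Rpl29 (-1.81) and Rpl18 (-1.13) were also over 2-fold lower. Rpl14, at 86.5 FPKM against 48.2 and 43.8, was the highest of the members that reached 10 FPKM (0.90). Rps27 was at 146 against 119 and 133. The FK866, TSA and Sirt1 comparisons share the late 2-cell control libraries, so the low values of Rps15 and Rpl41 in several of them are not separate observations.

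Genes around the ribosome were read on the same scale. Of 4 further ribosome genes whose symbols fall outside the rule 2 were in the table. Rack1, a scaffold on the small subunit, was the same in early and late 2-cell (-0.01) and 2.47 higher in the 4-cell control by headers. Of 15 other genes with TOP mRNAs 7 were in the table, and between early and late 2-cell 1 was more than 2-fold higher, Eif3f (2.68), and 2 lower, Npm1 (-1.94) and Eef1a1 (-1.20). Their median of -0.10 lay under the 3.16 of the ribosomal protein genes. In the late 2-cell FK866 comparison 0 of the 7 passed 2-fold.

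The 42 mitochondrial ribosomal protein genes and 36 translation initiation factor genes had medians of -0.33 and 0.66 between early and late 2-cell, with 12 of 41 and 15 of 35 more than 2-fold higher and 15 and 7 lower. Limma called 5 of the mitochondrial genes higher and 4 lower, and 7 of the initiation factor genes higher and 1 lower, where it called 40 of 53 cytosolic members higher. In the late 2-cell FK866 comparison their medians were -0.47 and -0.22, beside -0.43 for the cytosolic members. Of 18 regulators of ribosomal protein genes and of TOP mRNAs, such as Mtor, Rheb, Tsc1 and the 4E-binding proteins, 7 were in the table. Between early and late 2-cell 2 of them were more than 2-fold higher and 0 lower, with a median of 0.31, limma called none, and with FK866 0 passed 2-fold.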

How the data were processed

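Embryo RNA-seq reads had been trimmed with Trim Galore, aligned to mm10 with HISAT2 and counted per gene with featureCounts by the authors, who deposited FPKM in 1 column per group for 9 groups (18 RNA samples). The other 24 samples, of chromatin profiling, were not used here.

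Members and gene lists were chosen with earlier results of these data known. Values times exon length (GENCODE M21) fall on steps of 1 read per library, from which the number of libraries in a column, their totals and each gene's reads in each were recovered, for 90.0% to 95.7% of values by column. On simulated columns 99.8% to 100% of values were separated, and 100% of these correctly. The last row of the table, cut short, was left out.

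Columns were mapped by header, and also by the values that the study's tables list per group: for the late 2-cell and 4-cell control, FK866 and FK866+NMN groups the listed values match those of 1 column each, within a relative 1e-05. All 84 listed genes matched in the 3 4-cell groups and all 118 in late 2-cell FK866, and 117 of 118 in the other two late 2-cell groups. The TSA and Sirt1 knockdown columns were assigned to the last 2 columns from the direction of the genes listed for these treatments. Against the late 2-cell control, the column headed 4-cell FK866 had the direction of 1203 of 1203 TSA genes, and the one headed TSA that of 546. For the knockdown, the column headed 4-cell FK866+NMN had the direction of 773 of 821 genes, and the one headed Sirt1 that of 442. Other columns reached up to 91.1% for TSA and 85.6% for the knockdown.

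The log2 difference of (FPKM per library + 1) was taken between columns for genes at 1 FPKM per library or more in either, and called past 2-fold. Such differences understate those of low genes and have no p-value. As a test chosen after seeing the data, limma 3.58.1 (R 4.3.3), with trend, was run per pair of columns on log2(FPKM + 1) of the separated libraries, with Benjamini-Hochberg adjustment over all genes tested and a threshold of 0.05, two-sided. On simulated data of 6537 genes for the late 2-cell FK866 comparison it called 65% of 100 genes raised 4-fold, 56.1% of 98 lowered 4-fold and 6 of 6339 unchanged. The simulated spread was a fixed setting, the same for every gene and not fitted to these libraries. In the data the median gene lay 0.82 log2 units apart between the control libraries and 0.79 between the FK866 libraries. The simulated rates may therefore not hold for the real comparison. The p-values of limma measure the spread between these libraries only, which may be technical, and reads without molecular identifiers are not independent molecules.

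Named in each comparison were the 5 members with the largest rise and the 5 with the largest fall among those at 10 FPKM per library or more in either column, all members of the stalk, 5S particle, tunnel, mRNA path and paralogue lists, the 5 highest and lowest by mean, and members listed at 0. Some genes that this rule names are not reported here, though counts and medians include them. Genes of the other lists were counted, with values for some past 2-fold. Start windows came from RefSeq (GRCm38.p6), matched by symbol. Alternatives were other pseudocounts, filters, centring, column readings and member sets, and leaving out libraries. Python 3.11.15, numpy 2.4.6, pandas 2.3.3 and matplotlib 3.10.9 were used.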

Additional observations from a re-analysis of the deposited data

Results flagged for a closer look

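For a few members the FK866 difference from control went one way in every library of late 2-cell embryos and the other way in every library of 4-cell embryos. The difference between the stages was not tested, and the 4-cell FK866 group by headers is 1 library. By headers these were Rpl7, at 0.72 log2 units in late 2-cell and -4.69 in 4-cell embryos, Rps27a at 0.64 and -3.19, Rpl14 at 0.39 and -1.75, and Rpl13a at 0.19 and -0.73. They are the 4 members with both late 2-cell FK866 libraries above both control libraries. Since 50 of 51 members lay below control in 4-cell embryos by headers, nearly any such member would be listed. The share of all genes with such a change of direction was not counted. By the study's tables they were Rpl7 again, at 0.72 and -0.48, and members that lay below control in late 2-cell and above it in 4-cell embryos. Among these were Rps4l at -0.90 and 0.78, Rpl34 at -0.97 and 0.22, and Rpl35 at -0.89 and 0.21.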

How the results depend on the processing

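No paired analysis was possible because the columns carry no replicate numbers. Of 95 alternative values of the median member difference, 73 were counted as the same, 18 moved and 4 changed sign. The same means within the spread between replicates, except for 4-cell FK866+NMN over FK866 by headers. That comparison has 1 library in each column and so no such spread, and its values that kept their sign were counted as the same. Read by the study's tables, the median reversed to -1.25 for TSA, -0.29 for the Sirt1 knockdown and -0.22 for 4-cell FK866+NMN over FK866, and it moved to -0.063 for 4-cell FK866 and 1.75 for 4-cell over late 2-cell control. Centring on all genes reversed late 2-cell FK866+NMN over FK866 to 0.033 and moved 4-cell over late 2-cell control to 1.72, TSA to 2.20, Sirt1 to 2.00 and 4-cell FK866 to -2.89. A pseudocount of 5 gave 2.61 for late over early 2-cell, 1.65 for Sirt1 and -2.28 for 4-cell FK866, a pseudocount of 0.1 gave -2.58 for the last, and summed columns taken as they stand gave -3.46. Leaving out 1 library gave medians of 2.93 to 3.23 (late over early 2-cell), 1.37 to 1.58 (4-cell over late 2-cell control), -0.63 to -0.44 (late 2-cell FK866), -0.57 to -0.16 (FK866+NMN over FK866), 1.68 to 1.75 (TSA), 1.55 to 1.78 (Sirt1) and -2.59 to -2.46 (4-cell FK866). The shares of FPKM without the paralogue list were 0.597% in early 2-cell, 3.64% in late 2-cell control, 2.52% with FK866, 8.93% under the TSA header and 8.51% under the Sirt1 header. Without the 10 highest genes they were 0.762%, 5.14%, 3.96%, 10.2% and 9.54% in the same columns, 3.43% with late 2-cell FK866+NMN and 4.64% under the 4-cell FK866+NMN header. Limma counts were the results that moved most. Against 40 members called for late over early 2-cell, leaving out 1 library gave 0 to 15. Against 33 for 4-cell over late 2-cell control it gave 0 to 1 and no trend gave 0, and by the tables, as for TSA by headers, 25 became 0 to 7 and 2. For Sirt1 32 became 0 to 1 and 0 with no trend, for TSA by the tables, 2 became 0 with no trend, and for FK866+NMN over FK866 0 became 0 to 1. For 4-cell FK866 24 became 37 with a filter of 5 FPKM. In these refits no called member changed sign, and fewer libraries leave fewer residual degrees of freedom. Libraries of 3 embryos at these depths leave members under about 1 FPKM undetermined: Rpl32l, Rpl21 and Rpl22l1 had libraries at or near 0. Early 2-cell library B had further members under 1 FPKM, among them Rps27, Rpl9, Rps3, Rpsa and Rpl34.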
